A study of Mus musculus with 2 samples.

Results

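The genes described are 10 transcription factor genes of the AP-1 and BATF families in cultured mouse dendritic cells (DC), the cells that present antigen to T cells. They were taken by family membership, matched on Entrez Gene number, and are Fos, Fosb, Fosl1, Fosl2, Jun, Junb, Jund, Batf, Batf3 and Atf3. All 10 had reads in both libraries, out of 18090 gene IDs listed in either. Of these IDs, 11547 reached 1 RPKM (reads per kilobase of gene model and per 1000000 counted reads) in a library and were compared, all 10 genes among them. The study sequenced RNA of 1 mature and 1 immature DC library. Both were grown from C57BL/6 bone marrow for 6 days with the cytokines GM-CSF (10 ng/ml) and IL-4 (1 ng/ml), and both were sorted by flow cytometry for I-Ab, an MHC class II molecule, and for CD86. The mature cells had lipopolysaccharide (LPS), the bacterial ligand of Tlr4, at 100 ng/ml for 24 h with the same cytokines. The protocol gives LPS to a sample 2, read here as the library labelled mature. Whether the immature cells stayed in culture as long is not said, nor how many animals were used or how the gates were set. Each state has a single library (n = 1) and hence no replicate error. No test was made, and every difference below is one between these libraries.

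The mature library held 8.07 M counted reads and the immature library 7.56 M. Cd86 and Ccr7, markers of DC maturation, stood at 152 and 578 RPKM in the mature library, against 26.1 and 31.5 RPKM in the immature library. H2-Ab1, a chain of I-Ab, was abundant in both, at 978 RPKM in mature and 1256 RPKM in immature DC. Of 10 DC markers, 4 were at least 2-fold higher in mature DC and 1 lower, beside 9.05% and 11.3% of all genes compared. The other 5 lay within 2-fold, and the median log2 fold of all 10 was 0.14. The lower one was Itgax, the gene of CD11c, at 148 RPKM in mature and 407 RPKM in immature DC, and Cd74, the class II invariant chain, stood at 2910 RPKM in mature and 5173 RPKM in immature DC. Because CD86 and I-Ab were sorted on, the Cd86 and H2-Ab1 values are no finding. Cd86 goes with the labels, while H2-Ab1, lower in the mature library, does not check them.

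AP-1 is a family of dimers that bind DNA through a basic region and hold together through a leucine zipper, the bZIP domain. JUN proteins can pair with each other or with FOS proteins, while FOS proteins need a JUN partner, and the pairs bind the heptamer TGANTCA, where N is any base. ATF3 pairs with JUN proteins or with itself and is known in macrophages as an LPS-induced brake on inflammatory genes. BATF and BATF3 lack the activation domain of FOS, pair with JUN proteins, and bind DNA together with IRF4 or IRF8. In mice, BATF3 is needed for the conventional DC type 1 (cDC1). Fos, Fosb, Jun, Junb and Atf3 are immediate early genes: their transcription starts within minutes of a signal through MAP kinases and their mRNA is short-lived. A value here thus describes the sorted cells as collected, and after 24 h of LPS not the first response to it.

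The bases just upstream of 5 of these genes are shown because Fos, Fosb and Atf3 had the largest differences between the libraries, and Jun and Junb, which differed less, stand beside them. The sequences are from RefSeq on GRCm38.p6, whose table held 9 of the 10 genes, not Fosl1. The deposited files carry no coordinates, and their build, mm8, differs from this one. Each run is the 250 bases before the annotated start, 5′ to 3′ on the gene's strand. Fos lies at chr12:85473640-85473889 on the plus strand, Fosb at chr7:19310046-19310295, Atf3 at chr1:191183334-191183583, Jun at chr4:95052223-95052472 and Junb at chr8:84978749-84978998, the last 4 on the minus strand. Capitals mark matches, on either strand, to TGACNTCA (the cAMP response element and its variants), TATAAA, the kappaB motif or TGACG, the first bases of the cAMP response element.
Fos: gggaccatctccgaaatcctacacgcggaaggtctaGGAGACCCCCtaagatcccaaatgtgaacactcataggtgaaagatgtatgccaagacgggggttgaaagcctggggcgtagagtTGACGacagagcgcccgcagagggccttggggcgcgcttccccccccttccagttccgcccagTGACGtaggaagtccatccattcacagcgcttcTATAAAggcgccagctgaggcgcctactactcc
Fosb: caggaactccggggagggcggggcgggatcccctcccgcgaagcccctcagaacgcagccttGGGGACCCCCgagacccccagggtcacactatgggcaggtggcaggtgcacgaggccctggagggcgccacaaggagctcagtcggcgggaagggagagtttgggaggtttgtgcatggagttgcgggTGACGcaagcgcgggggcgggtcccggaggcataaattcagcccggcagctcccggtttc
Atf3: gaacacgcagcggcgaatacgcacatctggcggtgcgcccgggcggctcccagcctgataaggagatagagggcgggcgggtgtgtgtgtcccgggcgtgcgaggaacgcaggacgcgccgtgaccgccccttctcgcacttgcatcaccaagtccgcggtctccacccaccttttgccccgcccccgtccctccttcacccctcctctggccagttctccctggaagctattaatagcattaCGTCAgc
Jun: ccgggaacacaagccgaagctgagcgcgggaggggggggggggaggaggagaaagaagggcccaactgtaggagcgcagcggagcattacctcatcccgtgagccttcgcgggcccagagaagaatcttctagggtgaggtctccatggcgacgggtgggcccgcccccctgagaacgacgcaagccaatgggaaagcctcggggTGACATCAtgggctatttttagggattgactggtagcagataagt
Junb: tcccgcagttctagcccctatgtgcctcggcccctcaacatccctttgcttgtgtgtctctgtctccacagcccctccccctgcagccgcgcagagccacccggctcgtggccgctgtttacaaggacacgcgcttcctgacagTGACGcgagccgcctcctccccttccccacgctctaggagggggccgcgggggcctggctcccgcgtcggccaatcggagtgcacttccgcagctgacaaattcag

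TGACG, a motif chosen after these sequences had been read, was found in 5 of the 9 promoters (Fos, Fosb, Junb, Batf and Atf3), beside 17.8% of all 32851 promoter windows of the same length. It stood 66 to 62 bases before the start in Fos, which had a second match at 129 to 125, at 60 to 56 in Fosb, and at 7 to 3 on the opposite strand in Atf3. Jun alone among the 9 matched TGACNTCA, as TGACATCA at 45 to 38 bases before its start, beside 7.49% of all windows. The kappaB motif, 10 bases long and bound by NF-kB, was matched in Fos, Fosb and Fosl2, beside 7.25% of windows, and TATAAA in Fos alone, beside 12.4%. TGANTCA, in 6.75% of windows, and the CArG box, the motif of serum response factor, in 1.47%, had no match in the 9 windows. Bases further upstream were not searched, so a missing match does not speak for sites there. The interferon-stimulated response element, 10 bases long, was matched in Fosl2 alone, beside 2.98% of windows, and TTCNNNGAA, a motif of STAT factors, in Batf3 alone, beside 7.02%. Matches to TGACNTCA with G for N also hold TGACG, and the match in Jun is not one of them. These are matches of letters and say nothing of binding.

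Fos, Fosb and Atf3 were each about 3 times as abundant in the mature library, and the other 7 genes lay within 2-fold. Genes were called from 2-fold upwards on a log2(RPKM + 1) scale, mature over immature, on which the change of low genes is understated. On this rule 3 of the 10 genes were higher and 0 lower in mature DC, while 9.05% of all 11547 genes compared were higher and 11.3% lower. Where a library reached 10 RPKM, 3 of 8 members were higher, beside 9.71% of all such genes. The median log2 fold was 0.68 over the 10 members and 0.03 over all genes compared. Ratios below divide mature by immature RPKM and carry an exact 95% interval (Clopper-Pearson) in parentheses. These intervals cover counting error only, and with this many reads many genes pass it: the interval lay wholly above 1 for 6 members and for 36.1% of all genes, and wholly below 1 for 1 member and for 33.8% of all genes.

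**Figure D1:**
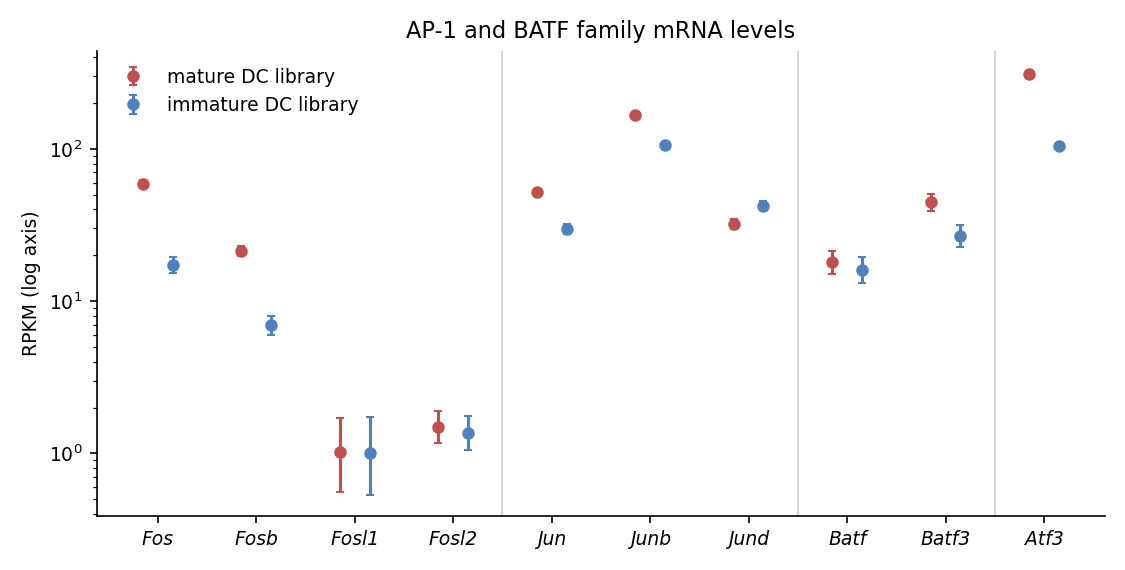
RPKM of the 10 genes on a log axis, in the mature (red, left) and immature (blue, right) DC library, with exact 95% Poisson intervals as bars. Grey lines part the FOS, JUN, BATF and ATF3 genes. Atf3 stands at 311 RPKM in the mature and 104 RPKM in the immature library, and Fosl1 near 1 RPKM in both.

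Among the FOS genes the difference lay in Fos and Fosb. Fos (Entrez Gene 14281), the c-Fos gene, had 1005 reads and 59.1 RPKM in the mature library and 277 reads and 17.4 RPKM in the immature library, a ratio of 3.4 (2.97 to 3.9). Fosb (14282), which encodes the close relative FosB, had 653 reads and 21.4 RPKM in the mature library and 199 reads and 6.95 RPKM in the immature library, a ratio of 3.07 (2.62 to 3.62). Both mature values thus lay beyond the counting intervals of the immature ones, and in the ranking of log2 folds over all genes compared Fos was at percentile 97.4 and Fosb at 96.3.

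Fosl1 and Fosl2, which encode the Fra-1 and Fra-2 proteins and lack the strong activation domain of c-Fos, were near the lower limit of the comparison. Fosl1 (14283) had 14 reads and 1.02 RPKM in the mature library and 13 reads and 1.01 RPKM in the immature library. Its ratio of 1.01 (0.44 to 2.33) leaves a difference of over 2-fold within counting error, so no difference was detectable at this depth. Fosl2 (14284) had 71 reads and 1.49 RPKM in mature and 61 reads and 1.37 RPKM in immature DC, a ratio of 1.09 (0.763 to 1.56). Its reads covered only 8.22% of its 5886 bases in the mature library and 8.38% in the immature library. Of genes within 1.3 times its reads and length, 5 of 132 in the mature and 6 of 124 in the immature library were covered that little, and their median was 35.1% and 31.7%. The low RPKM of Fosl2 thus rests on a small stretch of its gene model.

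The JUN genes differed less, and not all in the same direction. Junb (16477), the most abundant of them, had 2437 reads and 167 RPKM in mature DC and 1447 reads and 106 RPKM in immature DC, a ratio of 1.58 (1.48 to 1.68). Jun (16476), the c-Jun gene, had 1333 reads and 51.8 RPKM in mature DC and 718 reads and 29.8 RPKM in immature DC, a ratio of 1.74 (1.59 to 1.91). Jund (16478), commonly held to be the most steadily expressed of them, was the only member lower in the mature library. It had 746 reads and 32.1 RPKM in mature DC and 920 reads and 42.3 RPKM in immature DC, 1.32-fold lower (1.19 to 1.45).

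The 3 JUN values therefore spread on both sides of 1, all within 2-fold. Junb exceeded Jun by 3.22-fold (3.01 to 3.45) in the mature and by 3.55-fold (3.25 to 3.89) in the immature library, levels per length. Reads covered 70.2% of the Jund model in the mature and 65.6% in the immature library, where genes of like reads and length had medians of 92.1% and 93%. Its level against the other genes is the less certain for this.

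Batf3 was moderately higher and Batf was not clearly apart. Batf3 (381319) had 256 reads and 44.5 RPKM in the mature library and 145 reads and 26.9 RPKM in the immature library, a ratio of 1.65 (1.34 to 2.04). Batf (53314) had 132 reads and 18.1 RPKM in the mature library and 110 reads and 16.1 RPKM in the immature library, a ratio of 1.12 (0.866 to 1.46), whose interval includes 1. Batf3 was thus the leading BATF transcript in both states, at 2.46 times the RPKM of Batf (1.99 to 3.06) in mature and 1.67 times (1.3 to 2.16) in immature DC. Their relative Batf2, which is not among the 10, stood at 2.59 RPKM in mature and 3.04 RPKM in immature DC.

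Atf3 (11910) had the largest difference in RPKM of the 10 genes. It had 4977 reads and 311 RPKM in the mature library and 1560 reads and 104 RPKM in the immature library, a ratio of 2.99 (2.82 to 3.17). It ranked at percentile 98.6 of all genes compared by mature RPKM and at 94.2 by immature RPKM. In immature DC it stood level with Junb, at 0.983 times its RPKM (0.915 to 1.06), and in mature DC at 1.86 times (1.77 to 1.96).

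The ratios of Fos, Fosb and Atf3 could not be told apart from one another by counting error. The ratio of Fos was 1.11 times that of Fosb (0.893 to 1.37) and 1.14 times that of Atf3 (0.982 to 1.32), and that of Fosb was 1.03 times that of Atf3 (0.867 to 1.22). Of the 45 pairs of members, 30 had a ratio of ratios whose exact conditional interval left out 1, not adjusted for the number of pairs. The share over pairs of other genes was not computed, so this count does not set the members apart. Intervals of single genes already lay wholly above 1 for 36.1% and wholly below 1 for 33.8% of all genes. Fos exceeded Jun in this sense by 1.95-fold (1.66 to 2.3) and Jund by 4.47-fold (3.78 to 5.29), and Batf3 exceeded Batf, whose ratio was 0.68 times its own (0.485 to 0.954). Jun, Junb and Batf3 had ratios of 1.58 to 1.74 whose pairwise intervals all included 1.

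**Figure D2:**
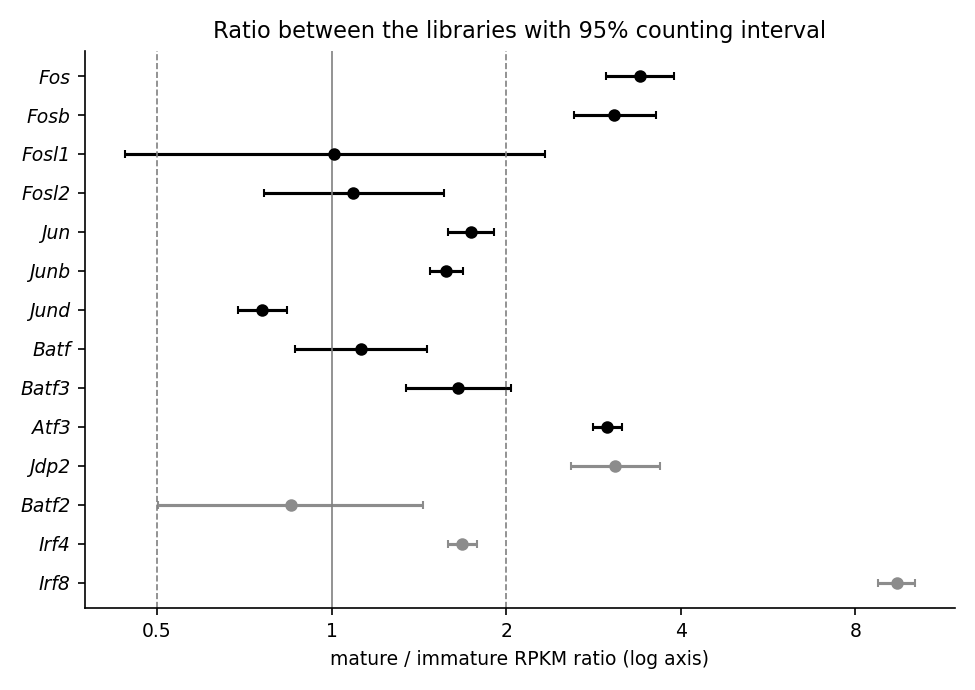
Ratio of mature to immature RPKM for the 10 members (black) and for Jdp2, Batf2, Irf4 and Irf8 (grey), on a log axis, with the exact 95% counting interval. The solid line is at 1 and the dashed lines at 2-fold. Fos, Fosb, Atf3 and Jdp2 lie near 3, Jun, Junb, Batf3 and Irf4 between 1 and 2, Jund below 1 and Irf8 at 9.42.

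In descending RPKM, the order in the mature library was Atf3, Junb, Fos, Jun, Batf3, Jund, Fosb, Batf, Fosl2 and Fosl1. Neighbours in this order differed beyond counting error except Fosb and Batf, whose ratio was 1.18 (0.979 to 1.44), and Fosl2 and Fosl1, at 1.47 (0.821 to 2.82). In the immature library the order was Junb, Atf3, Jund, Jun, Batf3, Fos, Batf, Fosb, Fosl2 and Fosl1. There the pairs Junb and Atf3, Jun and Batf3, Fos and Batf, and Fosl2 and Fosl1 did not differ beyond counting error. Fos stood at rank 3 in mature and 6 in immature DC, and Jund at rank 6 in mature and 3 in immature DC. Per length, Fos thus stood at 1.14 times the RPKM of Jun (1.05 to 1.24) in the mature library and at 0.584 times (0.506 to 0.671) in the immature library.

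The summed RPKM of the 10 genes was 708 in the mature library and 352 in the immature library, a ratio of 2.01. Atf3 made up 44% of this sum in mature DC and 29.6% in immature DC. The JUN genes made up 35.5% in mature and 50.6% in immature DC, the FOS genes 11.7% in mature and 7.59% in immature DC, and the BATF genes 8.85% in mature and 12.2% in immature DC. The make-up thus leaned to Atf3 in the mature and to the JUN genes in the immature library. Within the FOS genes, Fos held 71.2% of the RPKM in mature and 65.1% in immature DC. Within the JUN genes, Junb held 66.6% in mature and 59.5% in immature DC, and Jund 12.8% in mature and 23.8% in immature DC. These are shares of mRNA per length, not of protein.

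**Figure D3:**
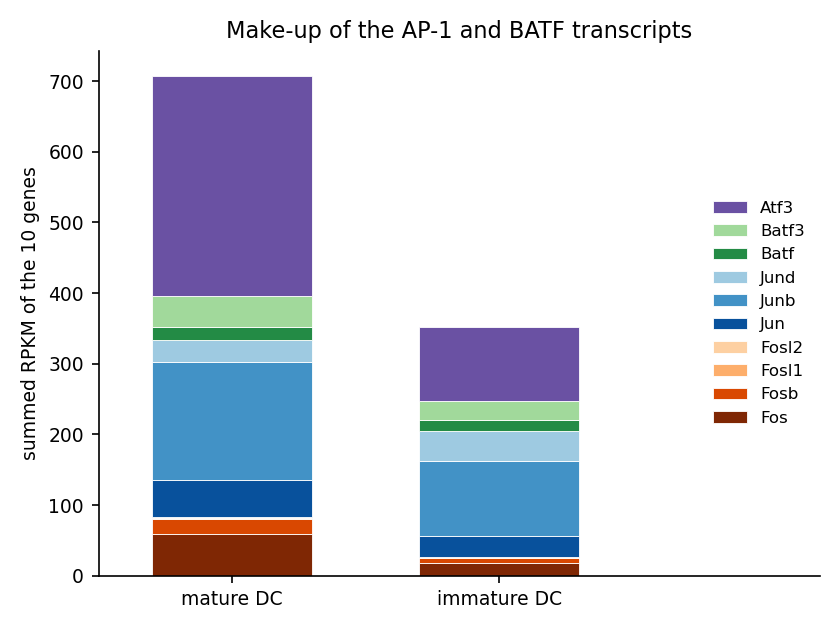
Summed RPKM of the 10 genes in the mature (left) and immature (right) DC library, with a segment per gene. The bar of the mature library reaches 708 and that of the immature library 352, and the Atf3 segment holds 44% of the mature and 29.6% of the immature bar.

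Among 25 other bZIP genes compared, 6 were called higher in mature DC, 1 lower and 18 within 2-fold, with a median log2 fold of 0.33 beside 0.03 over all genes. Over all genes compared, 9.05% were called higher and 11.3% lower. Jdp2, which encodes a repressor that pairs with JUN proteins, stood at 41.2 RPKM in mature and 13.4 RPKM in immature DC, a ratio of 3.08 (2.59 to 3.69). Atf5, of the stress-response ATF factors, stood at 204 RPKM in mature and 32.4 RPKM in immature DC, 6.29-fold higher (5.7 to 6.96). Crem, a modulator of cAMP response elements with activator and repressor forms, stood at 17.8 RPKM in mature and 4.44 RPKM in immature DC, 4.0-fold higher (3.19 to 5.06). The lower gene was Nfe2, a factor of blood cell precursors and megakaryocytes, at 5.39 RPKM in mature and 26.8 RPKM in immature DC, 4.97-fold lower (3.88 to 6.43). Per gene, the higher bZIP transcripts thus included both a repressor of AP-1 and stress factors.

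Of 27 compared genes of the MAP kinase cascade, which acts on AP-1, 23 lay within 2-fold, 2 were higher and 2 lower. Their median was 0.04. Most genes compared were likewise within 2-fold, with 9.05% of all of them higher and 11.3% lower. Map3k1, an upstream kinase of the JNK branch, stood at 54 RPKM in mature and 11.8 RPKM in immature DC, 4.58-fold higher (4.2 to 5.0), and Map3k2 was 2.31-fold higher (2.01 to 2.65). Mapk13, the p38 delta kinase, was 3.37-fold lower (2.39 to 4.82), and Rps6ka1, a kinase activated by ERK, 2.38-fold lower (2.17 to 2.63). Of 10 transcriptional regulators of Fos and Jun, 8 lay within 2-fold, with a median of 0.12. Stat3, a signal transducer of cytokines, was 2.15-fold higher (1.98 to 2.33) and Mef2c, a MADS-box factor, 6.13-fold lower (3.91 to 10), on 23 reads in mature and 132 in immature DC. All 9 genes for the turnover of the proteins or mRNA lay within 2-fold, with a median of -0.09. The transcripts of these cascades do not report kinase activity.

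**Figure D4:**
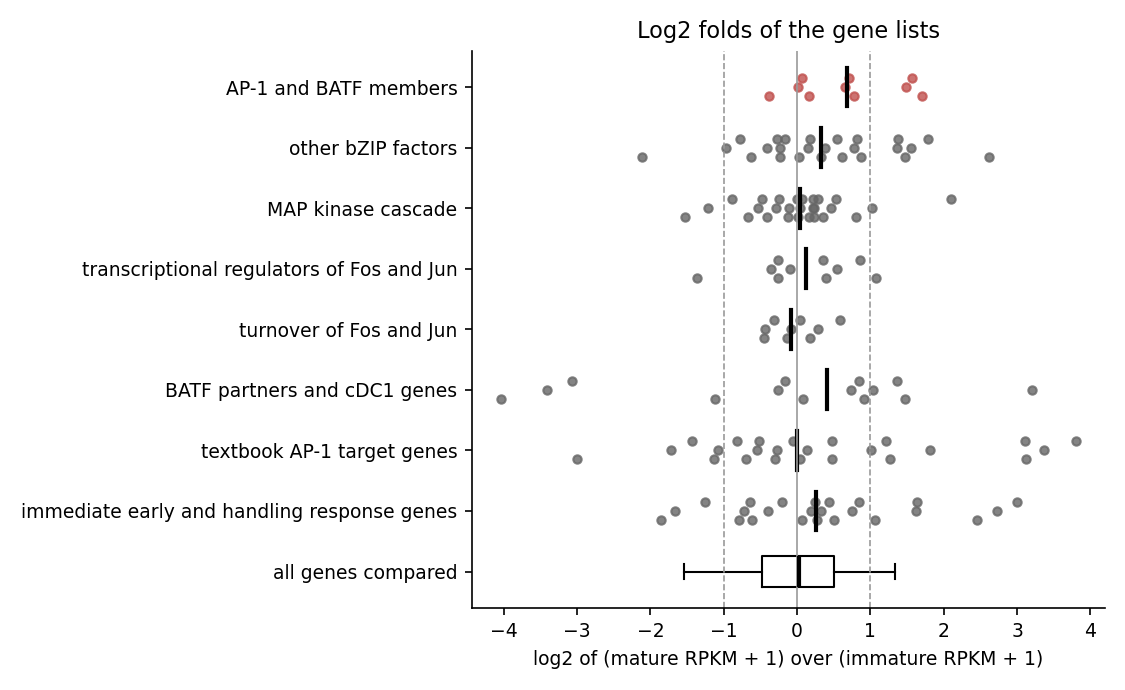
Log2 of (mature RPKM + 1) over (immature RPKM + 1) by list, for genes that reached 1 RPKM, with a black bar at each median. The lowest row is a box plot of all genes compared, with whiskers at percentiles 5 and 95, and the dashed lines mark 2-fold. The members (red) have their median at 0.68 and all genes at 0.03.

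Irf4 and Irf8, the DNA-binding partners of the BATF proteins, differed from each other. Irf8 stood at 350 RPKM in mature and 37.2 RPKM in immature DC, 9.42-fold higher (8.76 to 10.1), and Irf4 at 85.1 RPKM in mature and 50.6 RPKM in immature DC, 1.68-fold higher (1.59 to 1.78). Irf8 was at 4.12 times the RPKM of Irf4 (3.95 to 4.29) in mature DC and at 0.734 times (0.675 to 0.799) in immature DC. Of 14 compared genes in the list of BATF partners and cDC1 genes, which holds both, 4 were higher, 4 lower and 6 within 2-fold, with a median of 0.41. The shares over all genes compared were 9.05% higher and 11.3% lower. Higher besides Irf8 were Nfil3, a bZIP repressor that cDC1 development needs in mice, 3.72-fold (2.45 to 5.79), Zbtb46, a factor of conventional DC, 2.93-fold (2.29 to 3.77), and Id2, an inhibitor of bHLH factors, 2.06-fold (1.96 to 2.18). Nfil3 had 115 reads in mature and 29 in immature DC, which covered only 18.5% and 17% of its gene model. Lower were Itgae, which encodes CD103, 96.2-fold (43.9 to 263) on 6 mature and 541 immature reads, Cd24a, 10.8-fold (9.99 to 11.7), Wdfy4, a cross-presentation gene, 9.53-fold (8.7 to 10.5), and Naaa, a lysosomal amidase gene, 2.19-fold (2.05 to 2.34). The defining cDC1 markers were low in both states: Xcr1 had 14 reads in each library, and Clec9a had 17 in mature and 19 in immature DC.

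Textbook target genes of AP-1 went both ways, with 8 of 24 higher, 5 lower and 11 within 2-fold. Over all genes compared, 9.05% were higher and 11.3% lower. The median log2 fold of the target genes was -0.01, and turned to 0.08 and 0.11 under the rescalings to a common sum. The highest were Ptgs2, the inducible prostaglandin synthase, at 157 RPKM in mature and 10.3 RPKM in immature DC, the growth factor gene Vegfa at 468 RPKM in mature and 44.2 RPKM in immature DC, and the cytokine gene Il6 at 135 RPKM in mature and 14.6 RPKM in immature DC. The lowest were the cyclin gene Ccnd1, at 2.35 RPKM in mature and 25.7 RPKM in immature DC, the cytokine gene Tnf, at 18.4 RPKM in mature and 62.6 RPKM in immature DC, and Trp53, which encodes p53, at 24.3 RPKM in mature and 67.1 RPKM in immature DC. A count over this list is not a measure of AP-1 activity, since most of its genes answer to other factors too.

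Other immediate early genes did not all share the direction of Fos, Fosb and Atf3. Of 24 immediate early and handling response genes, 6 were higher, 3 lower and 15 within 2-fold, with a median of 0.26. The shares over all genes compared were 9.05% higher and 11.3% lower. The 3 lower ones were Egr2, 3.24-fold (2.98 to 3.53), Egr3, 4.92-fold (3.11 to 8.09), and Ier2, 2.5-fold (2.06 to 3.04). The 6 higher ones included Gadd45b, at 136 RPKM in mature and 24 RPKM in immature DC. Dusp1 was 3.13-fold higher (2.9 to 3.39), Hsph1 3.15-fold (2.92 to 3.4) and Rhob 2.14-fold (1.9 to 2.42). The others were the heat shock genes Hspa1a, on 155 mature and 4 immature reads, and Hspa1b, on 168 mature and 1 immature reads. Hspa1a and Hspa1b are near-identical copies, so counts of uniquely placed reads are uncertain for both. Cell sorting is known to induce many genes of this list, and also Fos and Jun, which are not on it. The part of sorting in the member values was not tested.

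Most neutrophil, macrophage, monocyte, eosinophil, basophil and mast cell markers compared were lower in mature DC. Of 14 neutrophil markers 12 were at least 2-fold lower in mature DC (median log2 fold -3.08), and their summed level was 2042 RPKM in mature and 8350 RPKM in immature DC, with S100a9 at 501 RPKM in mature and 3449 RPKM in immature DC. Of 12 macrophage and monocyte markers 7 were lower (median -1.45), with sums of 2013 RPKM in mature and 9496 RPKM in immature DC, most of it Lyz2. Of 7 compared eosinophil, basophil and mast cell markers 5 were lower (median -1.90), with sums of 23.5 RPKM in mature and 394 RPKM in immature DC. All 8 cell cycle genes were lower (median -3.47), with sums of 51.8 RPKM in mature and 491 RPKM in immature DC. Over all genes compared, 11.3% were lower. The sums of 5 T cell and 5 NK cell markers were under 5 RPKM in each library, but not lower in mature DC. They were 4.89 RPKM in mature and 2.28 RPKM in immature DC for T cells. For NK cells they were 3.01 RPKM in mature and 2.34 RPKM in immature DC. The 3 T cell markers compared lay within 2-fold, with a median log2 fold of 0.73. T cell Cd28 had 0 reads in mature and 5 in immature DC, while Lck had 22 in mature and 5 in immature DC. NK cell Klrb1c and the B cell gene Pax5 were at 0 in mature DC, and NK cell Ncr1 was at 0 in immature DC. In bulk RNA, fewer cells of a type and less RNA per cell cannot be told apart, and the part of these cells in the values of the 10 genes was not tested.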

How the data were processed

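RNA-seq was deposited as 1 file per library, with genes listed by Entrez Gene number. The read counts are of uniquely placed reads and are not normalised, per the file headers. The authors' RPKM is these counts per kilobase of gene model and per 1000000 counted reads; this was checked and held within a relative deviation of 1.07e-07. The deposited coverage is the percent of the gene length with reads, per the file headers, and was used to describe how reads lie on a gene. Per the submitters' processing notes the build was mm8; strandedness, annotation, aligner and counting tool: not given in the sources used here. Symbols came from the RefSeq table of GRCm38.p6 by Entrez number or accession, for 16220 of 18090 IDs. A gene missing from 1 file was taken as 0 reads there; 3 reads on a gene of 1 kb are 0.372 RPKM in the mature and 0.397 RPKM in the immature library.

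Log2 folds used a pseudocount of 1 RPKM and the genes that reached 1 RPKM. Exact intervals (95%) came from scipy 1.17.1, and cover counting error only, since neither state has a replicate. Reads that carry no molecular identifier may repeat a molecule, which would make the intervals too narrow even for counting error. Alternative scalings used edgeR 4.0.16 and DESeq2 1.42.0, for their factors only. The steps were tested on simulated data. The members, the lists and the settings were chosen with earlier results of these data known. Named were the 10 members, Jdp2, Batf2, Irf4 and Irf8, up to 3 higher and 3 lower genes of each list, the most abundant markers of other cells, and the 3 genes nearest in both RPKM to each member past 2-fold; other names were chosen after their values were seen. No comparison of the proteins was made.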

Additional observations from a re-analysis of the deposited data

How the results depend on the processing

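Fos, Fosb and Atf3 were at least 2-fold higher under each setting tried other than 4-fold, where 0 of the 10 genes were called, and 0 were lower under any. Their log2 folds ranged from 1.52 to 1.82 for Fos, 1.14 to 1.61 for Fosb and 1.53 to 1.68 for Atf3; those of Jun, Junb and Batf3 stayed above 0 and that of Jund below 0. Fosl1 turned to -0.01 with TMM factors. Over all genes, 469 were higher and 686 lower with a pseudocount of 5 RPKM, and 197 and 316 at 4-fold, in place of 1045 and 1310. Rescaling to a common sum of RPKM without the 50 most abundant genes moved the median of all genes by 0.10 (log2); against that shift no member changed its call. As shares of reads, not per length, the FOS, JUN, BATF and ATF3 parts were 15%, 38.9%, 3.34% and 42.8% in mature DC, and the FOS, JUN and BATF parts 10.1%, 56.6% and 4.68% in immature DC, since the gene lengths differ. Among the list medians, with no filter that of the transcriptional regulators was -0.10 and that of the BATF partners and cDC1 genes 0.10, and with a filter at 5 RPKM they were 0.35 and 0.74, in place of 0.12 and 0.41; that of the turnover genes was 0.04 with that filter. No paired analysis was possible because each state has 1 library. Depth limits Fosl1 and Fosl2 most.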

Other observations

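The genes whose values in both libraries lay nearest to those of the 3 higher members were mixed in kind. The distance was taken over log2 of (RPKM + 1) in the 2 libraries, so it says only that the levels are alike. Nearest to Fos were Stat2, a signal transducer of type I interferon, at 60.7 RPKM in mature and 16.7 RPKM in immature DC, Sp140, a nuclear body gene, and Cxcr4, a chemokine receptor. Nearest to Fosb were the pseudogene H2-T-ps, a relative of class I genes with which it shares sequence, so that its count is uncertain, Bahd1, and the interferon-stimulated gene Isg15. Nearest to Atf3 were Fabp5, a fatty acid carrier, at 310 RPKM in mature and 119 RPKM in immature DC, the arginine transporter gene Slc7a2, and Txnip, a regulator of glucose uptake.

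Fos, Jdp2 and Batf follow each other as protein-coding genes on chromosome 12 in the RefSeq table, and their ratios of mature to immature RPKM were 3.4 for Fos, 3.08 for Jdp2 and 1.12 for Batf. The coding genes on the outer sides were Tmed10 beside Fos, with a ratio of 0.825 (0.763 to 0.893), and Flvcr2 beside Batf, with 3 reads in mature and 12 in immature DC. Batf3 and Atf3 lie on chromosome 1 with Fam71a between them, which had 13 reads in mature and 7 in immature DC. Beyond Atf3 lay Nenf, with a ratio of 2.07 (1.4 to 3.1), and Pacc1, with a ratio of 2.31 (1.94 to 2.75).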
